A study of Rattus norvegicus with 2 samples.

Results

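The genes described here encode 10 proteins of the BCL2 family, which decide whether a cell survives or dies by the mitochondrial route of apoptosis. They were chosen by name: Bcl2, Bcl2l1, Mcl1, Bax, Bak1, Bid, Bad, Bbc3, Pmaip1 and Bcl2l11. All 10 were found among the 18156 genes of a table of piggyBac transposon insertions. The insertions came from rat haploid embryonic stem cells (haESCs) of the line RAH-1, which carry 1 set of chromosomes and a green fluorescent protein reporter behind Rex1, a marker gene of naive pluripotency. The transposon carried a splice acceptor, so that it can trap the gene it lands in, and a red fluorescent protein gene. The library after screening came from mutant cells that had been left to differentiate at random, were still green, were sorted and were returned to stem cell medium with 2i and LIF. The library before screening came from mutant cells that had not been through this selection. Both share the cell line, the reporter, the transposon and growth on feeder cells, and the labels name the groups only as after and before screening. The study took the mutant cells before screening as its control and made more than 1 mutant library, and the labels do not say from which of these each count comes. The screen asked which disrupted genes keep cells from leaving pluripotency.

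The family works by binding within itself. BCL2, BCL-XL (from Bcl2l1) and MCL1 hold the pore-forming effectors BAX and BAK (from Bak1) in check at the outer membrane of mitochondria. The BH3-only proteins BID, BAD, PUMA (from Bbc3), NOXA (from Pmaip1) and BIM (from Bcl2l11) are raised or activated by stress and either neutralise the survival proteins or activate the effectors. Open pores release cytochrome c, which assembles APAF1 and caspase 9 into the apoptosome. Human embryonic stem cells are known to die readily by this route.

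There was 1 library in each group, so no difference had a replicate check and no test across samples was possible. The library after screening held 1287231 insertions in genes from 2351082 reads, and the library before screening held 1528935 from 2824155 reads. Each gene was expressed as its share of these insertions, and the fold is the share after over that before screening with an exact 95% interval that covers counting error only. The amplified reads carry no molecular identifiers and cannot be told apart as molecules. Intervals given for reads treat copies of the same insertion as separate counts and can be too narrow. Genes with a total of 10 or more insertions were measured, and a gene was called higher or lower if its shares were 4-fold or more apart with 1 outside the interval. For this a count of 0 was used as it stood. Such calls describe size and are no test. Of 11976 measured genes, 19.5% were called higher and 21.7% lower after screening, so a call was common, and a call for a gene of this family has to be read against these shares. Insertions were not divided by gene length, so numbers are not compared between genes.

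Of the 10 genes, 8 were measured. The effector gene Bax was called higher after screening (1 of 8, 12.5%), and the BH3-only genes Bad, Bbc3 and Pmaip1 were called lower (3 of 8, 37.5%), against 19.5% and 21.7% of all measured genes. The shares of Bcl2, Bcl2l1, Bid and Bcl2l11 differed by less than 4-fold. Mcl1 and Bak1 had too few insertions to be measured. Bbc3 and Pmaip1 passed the minimum through the library before screening alone, so they could hardly have been anything but lower, and the count of 3 is a description of these libraries.

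**Figure D1:**
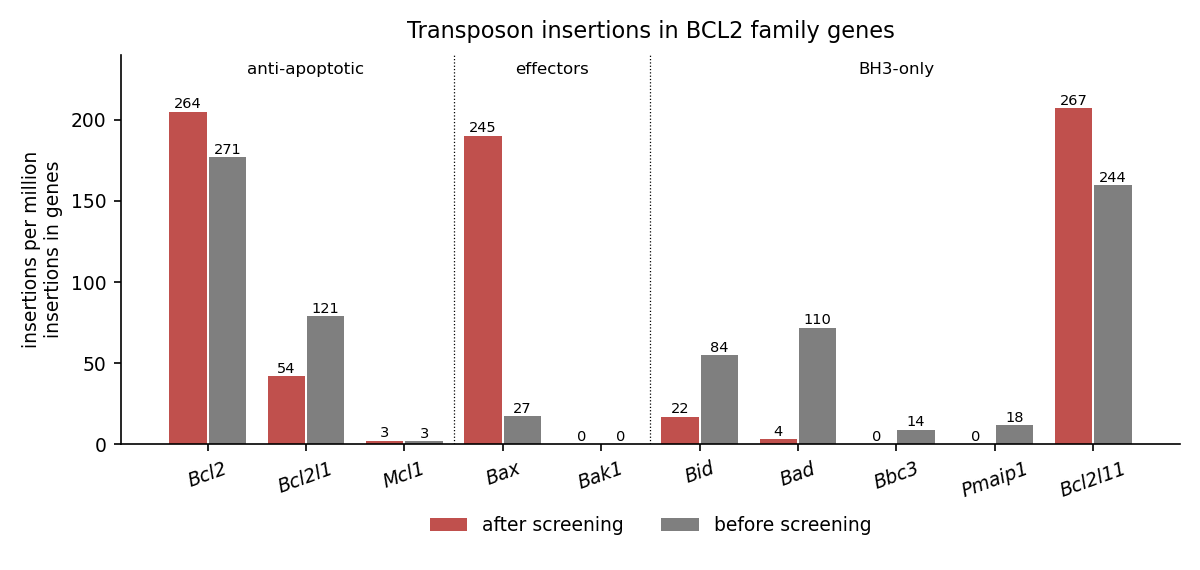
Insertions per 1000000 insertions in genes (vertical axis) for the 10 BCL2 family genes (horizontal axis, grouped by role), after (red) and before (grey) screening, with 1 library each, so there are no error bars. The number over each bar is the count of insertions. Bax stands at 245 after and 27 before screening, and Bad at 4 after and 110 before.

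Among the survival genes, Bcl2 (ENSRNOG00000002791) encodes the founding member of the family, an inhibitor of pore formation. It held 264 insertions after and 271 before screening, that is 205 and 177 per 1000000 insertions in genes (IPM). The fold was 1.16 (0.973 to 1.38), an interval that includes 1. With 535 insertions in total Bcl2 was among the better sampled genes, and of genes with a total of 300 to under 1000 insertions 7.88% were called higher and 8.87% lower. Its disrupting insertions, which are those that the deposited table counts as breaking the gene, were 128 after and 132 before screening (1.13-fold, 0.879 to 1.45). Forward and reverse insertions were 128 and 136 after and 129 and 139 before screening. In Bcl2 all measures were therefore close in both libraries, with log2 ratios of 0.18 for disrupting insertions and 0.21 for reads.

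PiggyBac integrates at the tetranucleotide TTAA, so the sites available to it depend on the local sequence. RefSeq promoter windows of assembly GRCr8, which run from 250 bases before to 50 bases after a gene's start, were found for 8 of the 10 genes. TTAA, which reads the same on both strands, was counted with overlaps allowed. It occurred in 4 of the 11 windows of these 8 genes, which belong to 3 genes (Bcl2, Bcl2l1 and Pmaip1), and in 53.9% of all 33465 windows. The windows of Bcl2, Pmaip1 and Bad are shown because they hold 7, 1 and 0 sites, the range found in the family. They were picked with the calls known: Bcl2 was not called, and Pmaip1 and Bad were called lower. Windows with 0 sites also belong to genes not called, such as Bcl2l11 with 267 insertions after and 244 before screening. Sites belong to the assembly and are the same for both libraries, so no ratio is read from them. At least 7 sites occurred in 0.263% of all windows. The window of Bcl2 is chr13:23366851-23367150 on the minus strand, that of Pmaip1 chr18:62255720-62256019 on the plus strand and that of Bad chr1:213562864-213563163 on the plus strand. Each is written 5′ to 3′ with TTAA in capitals.
Bcl2: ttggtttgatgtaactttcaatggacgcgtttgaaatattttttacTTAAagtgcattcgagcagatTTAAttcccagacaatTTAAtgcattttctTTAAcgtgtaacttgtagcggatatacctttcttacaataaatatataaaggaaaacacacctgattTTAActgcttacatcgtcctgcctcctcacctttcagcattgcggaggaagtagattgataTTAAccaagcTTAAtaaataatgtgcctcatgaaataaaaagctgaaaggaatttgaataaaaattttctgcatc
Pmaip1: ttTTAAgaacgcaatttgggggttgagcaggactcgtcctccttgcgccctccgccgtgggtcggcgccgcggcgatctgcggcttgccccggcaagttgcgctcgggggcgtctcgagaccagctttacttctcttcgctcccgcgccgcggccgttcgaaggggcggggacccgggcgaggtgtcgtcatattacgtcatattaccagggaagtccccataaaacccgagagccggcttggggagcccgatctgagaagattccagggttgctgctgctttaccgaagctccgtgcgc
Bad: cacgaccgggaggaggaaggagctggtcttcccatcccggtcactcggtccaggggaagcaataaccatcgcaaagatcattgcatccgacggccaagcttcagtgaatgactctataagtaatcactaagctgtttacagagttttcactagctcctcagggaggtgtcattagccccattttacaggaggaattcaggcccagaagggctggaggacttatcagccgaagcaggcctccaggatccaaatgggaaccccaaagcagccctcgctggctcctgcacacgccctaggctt
The table gives insertions per gene and not their positions, so whether any insertion lay in these windows was not measured.

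Bcl2l1 (ENSRNOG00000007946), the gene of BCL-XL, held 54 insertions after and 121 before screening, or 41.95 and 79.1 IPM. Its share was 1.89-fold lower (1.36 to 2.65) and did not reach the 4-fold rule. Disrupting insertions were 25 after and 63 before screening (2.16-fold lower, 1.34 to 3.59), and reads were 72 and 182 (2.10-fold lower, 1.59 to 2.80). All 3 measures lay on the lower side, with intervals that exclude 1, but they come from the same insertions and are not separate evidence. Of all measured genes 33.5% had a smaller log2 ratio than Bcl2l1. None of its insertions had a counted orientation in either library, although only 46.3% (32.6 to 60.4, exact Clopper-Pearson interval) were disrupting after and 52.1% (42.8 to 61.2) before screening. Of the genes with at least 20 insertions, 240 of 7874 after and 217 of 8485 before screening had no insertion of counted orientation. In 26 genes, Bcl2l1 among them, this went with fewer disrupting than all insertions in both libraries.

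Mcl1, the gene of a short-lived survival protein that mouse embryos need before implantation, held 3 insertions after and 3 before screening from 3 reads in each library. The fold of 1.19 (0.159 to 8.87) is too loose to show a difference in either direction. A count of 0 would allow 3 insertions, so these counts are at the limit of the depth. The table pairs no Ensembl identifier with Mcl1 or with Bbc3.

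Bax (ENSRNOG00000020876) encodes the effector that moves to mitochondria and forms pores when activated. It held 245 insertions after screening, or 190 IPM, against 27 before screening, or 17.7 IPM. Its share was 10.8-fold higher (7.23 to 16.7), the largest ratio of the 8 measured members, and 10.96% of all measured genes had a larger log2 ratio. Of genes with a total of 100 to under 300 insertions, where Bax lies with 272, 16.4% were called higher.

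The readouts of Bax lay on the same side, but all come from the same insertions, so their agreement is not separate evidence. Disrupting insertions were 140 after and 15 before screening (10.9-fold higher, 6.37 to 19.9). Forward insertions, the orientation in which the table counts intron insertions as disrupting, were 100 after and 9 before screening (13.6-fold, 6.89 to 30.7). Reverse insertions, which it does not count as disrupting, were 105 after and 12 before screening (10.7-fold, 5.86 to 21.3). The folds of the 2 orientations had overlapping intervals, and the disrupting share of Bax was 57.1% after (50.7 to 63.4) and 55.6% before screening (35.3 to 74.5), against 57.6% and 56.5% over all genes. Reads were 448 after and 38 before screening (14.2-fold, 10.2 to 20.3). There were 1.83 reads per insertion after and 1.41 before screening, where the median of measured genes was 1.30 and 1.36 and the 95th percentile 1.85 and 1.80. Bax thus had more reads per insertion after screening than most genes.

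Bak1 (ENSRNOG00000000485), the other effector, which sits in the outer membrane of mitochondria and can stand in for BAX, had 0 insertions after and 0 before screening. This allows up to 2.33 IPM after and 1.96 before screening. No ratio can be given, and 21.1% of all listed genes had no insertion in either library.

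**Figure D2:**
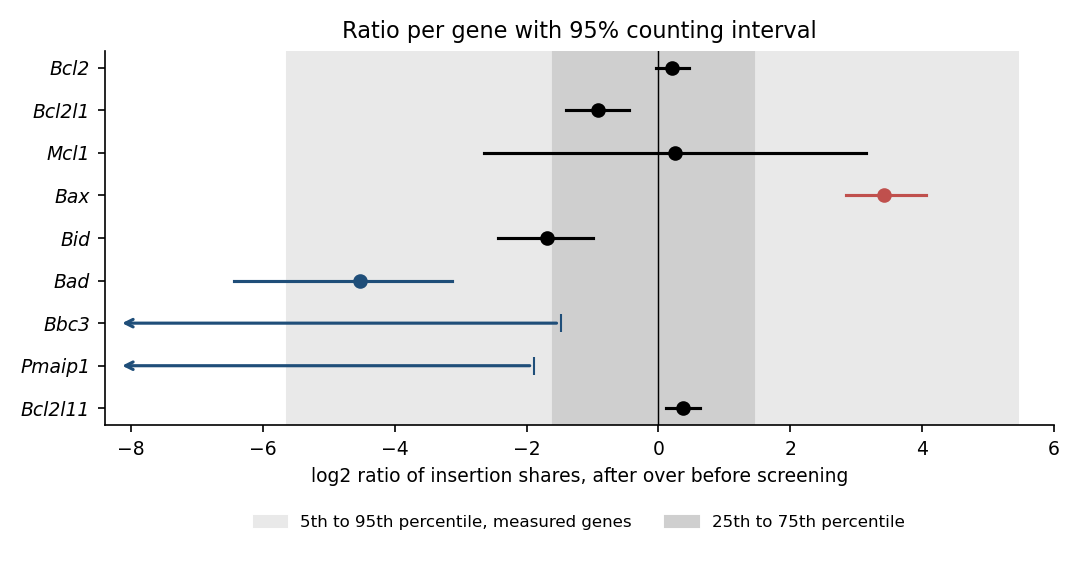
Log2 ratio of insertion shares, after over before screening (horizontal axis), for the 9 BCL2 family genes with an insertion (rows), with points for ratios, lines for 95% counting intervals and arrows for genes with 0 insertions after screening (red, called higher, blue, called lower, black, neither or too few). Shading spans percentiles of the 11976 measured genes (pseudocount 0.5), and Bax and Bad lie outside the middle band but inside the wide one.

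Among the BH3-only genes, Bad (ENSRNOG00000021147), whose protein binds BCL2 and BCL-XL and is held inactive by survival signals, stood lowest of the members hit in both libraries. It held 4 insertions after screening, or 3.11 IPM, against 110 before screening, or 71.9 IPM. Its share was 23.2-fold lower (8.79 to 86.5), and 10.2% of measured genes had a smaller log2 ratio. Disrupting insertions were 4 after and 80 before screening (17.2-fold lower, 6.45 to 64.5) and reads were 6 and 161 (22.3-fold lower, 10.04 to 61.8). Forward and reverse insertions were 1 and 0 after screening against 30 and 30 before screening. Another 3 insertions after and 50 before screening had no counted orientation. In genes like Bad, where disrupting insertions equal all insertions less the reverse ones, these were read as exon insertions. They made up 45.5% of the insertions of Bad before screening (35.9 to 55.2), above the 13.9% of all such genes. Of genes with a total of 100 to under 300 insertions, 19.6% were called lower.

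Bbc3, the gene of PUMA, and Pmaip1 (ENSRNOG00000018770), the gene of NOXA, encode BH3-only proteins that are made in response to DNA damage and other stress. Bbc3 had 0 insertions after and 14 before screening, those before screening from 24 reads, which is at least 3.93-fold lower against a floor of 3 insertions. With that floor Bbc3 falls short of the 4-fold rule. Pmaip1 had 0 after and 18 before screening, from 22 reads, which is at least 5.05-fold lower. The 95% intervals allow values down to 2.79-fold lower for Bbc3 and 3.70-fold lower for Pmaip1. Such losses were common at this depth. Of the 1329 genes with 10 to 19 insertions before screening, 21.8% had none after screening, and of genes with a total of 10 to under 30 insertions 31.7% were called lower and 30.1% higher. Before screening 11 of the 14 insertions of Bbc3 and 10 of the 18 of Pmaip1 were disrupting.

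Bid (ENSRNOG00000012439), whose protein links caspase 8 to mitochondria after cleavage, held 22 insertions after and 84 before screening, or 17.1 and 54.9 IPM. Its share was 3.21-fold lower (1.99 to 5.40), which the 4-fold rule does not call. A 2-fold rule would call Bid, as it would 31.3% of all measured genes lower and 30.4% higher. Forward insertions were 8 after and 41 before screening (4.18-fold lower, 1.93 to 10.3) and reverse insertions 10 and 40 (3.28-fold lower, 1.61 to 7.35). In reads, at 37 after and 118 before screening, the share was 2.65-fold lower (1.82 to 3.95).

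Bcl2l11 (ENSRNOG00000016551), the gene of BIM, which binds all survival proteins of the family, was the BH3-only gene whose share was not lower. It held 267 insertions after and 244 before screening, or 207 and 160 IPM (1.30-fold higher, 1.09 to 1.55). In reads the share was 1.22-fold higher (1.05 to 1.41), while in disrupting insertions, at 140 and 139, it was 1.17-fold (0.921 to 1.49), an interval that includes 1. Insertions with no counted orientation made up 5.62% after (3.18 to 9.10) and 13.5% before screening (9.50 to 18.5), intervals that do not overlap, whereas over all such genes the share was 16.3% after and 13.9% before screening. Bcl2l11 overlaps Acoxl, an acyl-CoA oxidase-like gene, in assembly GRCr8, so that an insertion there may have hit both. Acoxl itself held 235 insertions after and 435 before screening.

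**Figure D3:**
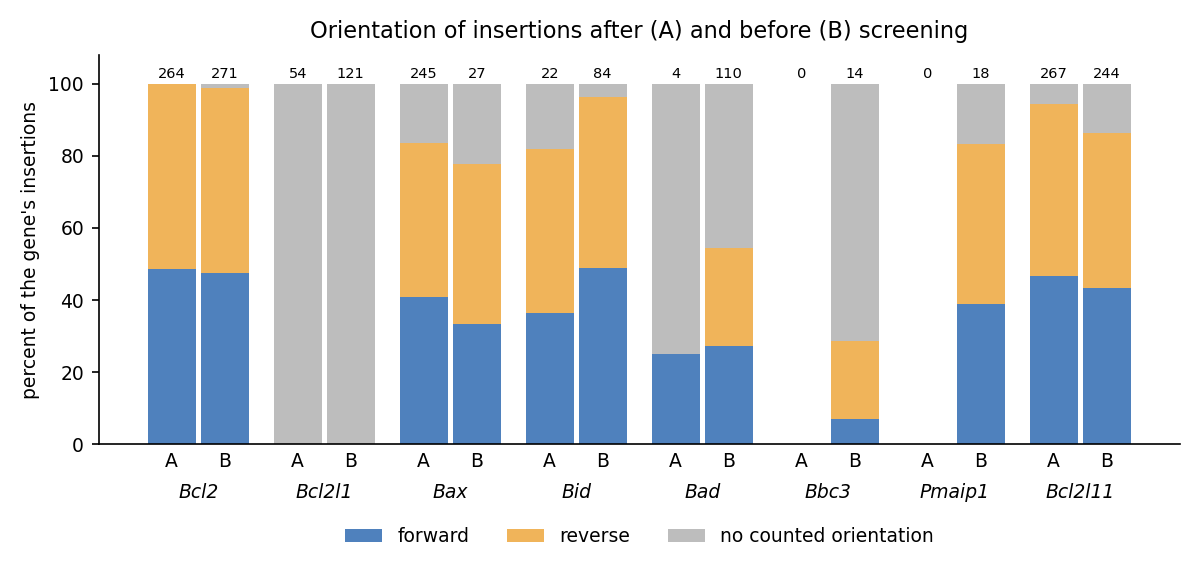
Percent of each gene's insertions (vertical axis) that were forward, reverse or of no counted orientation, after (A) and before (B) screening, for the 8 measured BCL2 family genes. The number over each bar is the count of insertions. Forward and reverse are close to equal in Bcl2, Bax and Bcl2l11, and Bcl2l1 has no counted orientation in either library.

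By role, the members did not all lie on one side. Summed over the 3 survival genes, insertions were 321 after and 395 before screening, a fold of 0.965 (0.830 to 1.12). Summed over the 5 BH3-only genes they were 293 after and 470 before screening (1.35-fold lower, 1.16 to 1.57), of which Bcl2l11 gave 267 and 244. The median log2 ratio of the BH3-only genes was -4.37, or -1.97 with the genes at 0 set to their floor, and that of all measured genes was -0.01. That median leans on Bbc3 and Pmaip1, which passed the minimum through the library before screening alone and could hardly have been anything but lower. These sums and medians rest on few genes and are descriptions.

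The shares of genes beside these members did not follow them in a fixed way. In the gene order of assembly GRCr8, the nearest protein-coding neighbours listed in the table, a choice made after values were seen, were looked up for each called member. Beside Bax, Ftl1 had 0 insertions in both libraries and Tulp2 had 163 after and 296 before screening, a ratio of shares of 0.654. Beside Bad, Gpr137 had 21 after and 0 before screening, and Plcb3 had 30 after and 194 before screening and was called lower as Bad was. Beside Bbc3, Inafm1 had 47 after and 26 before screening, while Sae1 had 15 and 150 and was called lower. Beside Pmaip1, Lman1 had 125 after and 117 before screening and Mc4r had 19 and 0. Bax and Tulp2 thus lay on opposite sides. Bad and Bbc3 each had a flanking gene that was also called lower. Gpr137 beside Bad and Mc4r beside Pmaip1 were instead called higher, opposite to these members. Of all measured genes 19.5% were called higher and 21.7% lower, so calls among neighbours are common. Of the members, Bcl2, Bcl2l1, Bak1 and Bcl2l11 overlap another gene or locus in that assembly.

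Other genes of the family were taken from a list of 17, of which 12 were measured. Of these 2 were called higher, 1 lower and 9 neither, and the median log2 ratio was 1.10. Moap1, which encodes a partner of BAX, held 63 insertions after and 13 before screening (5.76-fold higher, 3.14 to 11.4). Bnip1, of the endoplasmic reticulum, held 128 after and 15 before screening (10.1-fold, 5.92 to 18.6). Bmf, another BH3-only gene, had 0 insertions after and 50 before screening (at least 14.0-fold lower). These 2 genes higher and 1 lower compare with 19.5% and 21.7% of all measured genes. Bik, another BH3-only gene, held 126 after and 233 before screening (1.56-fold lower, 1.25 to 1.95). The survival gene Bcl2l2 held 314 after and 160 before screening (2.33-fold higher, 1.92 to 2.84), and Bok, an effector-like gene, held 95 and 50 (2.26-fold, 1.59 to 3.25). The log2 ratio of Bok was 1.17 in insertions and 0.41 in disrupting insertions. Bcl2l14 stood at 106 after and 48 before screening, Bcl2l13 at 59 and 34, Bcl2l12 at 31 and 19, and Bfar, which binds BCL2, at 22 and 10, all between 1.94-fold and 2.62-fold higher. The mitophagy receptor gene Bnip3l at 32 and 31 and Bnip2 at 41 and 32 had intervals that include 1. Of all genes with a total of 30 to under 100 insertions, as 7 of these 12 had, 25.6% were called higher and 28.1% lower.

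Downstream of the pore, 13 of 16 listed genes of the apoptosome, the caspases and their inhibitors were measured. Birc2, an inhibitor of apoptosis, was called higher (7.69%), and 4 genes, Casp9, Birc5 and Aifm1 among them, were called lower (30.8%). Of all measured genes 19.5% were called higher and 21.7% lower. The median log2 ratio of this list was -0.97. Casp9, the caspase of the apoptosome, had 0 insertions after and 253 before screening (at least 71.0-fold lower). Apaf1, the scaffold of the apoptosome, lay on the other side, with 91 after and 49 before screening (2.21-fold higher, 1.54 to 3.19). Diablo, which frees caspases from their inhibitors, held 14 after and 61 before screening (3.67-fold lower, 2.03 to 7.10). Birc2 held 51 after and 1 before screening (60.6-fold higher, 10.4 to 2439). Xiap, a direct caspase inhibitor, held 8 after and 7 before screening. Cycs, the gene of cytochrome c, had 0 after and 2 before screening, too few for a ratio. Cycs has near-identical copies in the genome, so its count is also uncertain.

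Genes whose products regulate the members were called as often in either direction, with 4 of 20 measured genes higher and 4 lower. These shares of 20% each lay near the 19.5% and 21.7% of all measured genes, and the median log2 ratio was 0.08. Mdm2, a ubiquitin ligase gene, held 30 after and 1 before screening (35.6-fold higher, 5.92 to 1454). Akt1, a kinase that phosphorylates BAD, held 10 after and 184 before screening (15.5-fold lower, 8.24 to 32.8), and Ppp1ca, a phosphatase catalytic subunit, held 4 and 51 (10.7-fold lower, 3.95 to 40.9). Mapk3 (ERK1), a kinase that phosphorylates BIM, had 80 after and 0 before screening (at least 31.7-fold higher). Gsk3b, a kinase that marks MCL1 for degradation, held 286 after and 61 before screening (5.57-fold higher, 4.21 to 7.47). Foxo3, a factor that activates Bcl2l11 and Bbc3, held 94 after and 197 before screening (1.76-fold lower, 1.37 to 2.28). Ddit3 had 2 after and 0 before screening. Huwe1 and Fbxw7 were not analysed here.

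At the mitochondrial outer membrane, where the family acts, 10 of 12 listed partner genes were measured, 1 called higher and 1 lower, with a median log2 ratio of -0.29. The channel gene Vdac3 held 56 insertions after and 2 before screening (33.3-fold higher, 8.79 to 281). Vdac1 held 55 after and 17 before screening (3.84-fold higher, 2.20 to 7.06), and Vdac2, whose product holds BAK at mitochondria, held 9 and 16 (1.497-fold lower, 0.623 to 3.84). Mtch2, the receptor of cleaved BID, held 4 after and 19 before screening (3.999-fold lower, 1.33 to 16.2). Opa1, which shapes the inner membrane cristae that hold cytochrome c, held 42 after and 257 before screening (5.15-fold lower, 3.71 to 7.32). Over the 4 lists, 8 of 55 measured genes (14.5%) were called higher and 10 (18.2%) lower, against 19.5% and 21.7% of all measured genes. Calls also grow rarer with the total of insertions. Of genes with a total of 10 to under 30 insertions 30.1% were called higher, and of those with 300 to under 1000 7.88% were. The lists were not matched for this, so nothing is concluded from these shares. Of the 66 listed genes, 24 overlap another gene or locus in GRCr8, among those named Bcl2l12, Moap1, Casp9, Diablo, Gsk3b, Ppp1ca, Ddit3, Vdac2 and Vdac3, and some of their insertions can belong to that neighbour.

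**Figure D4:**
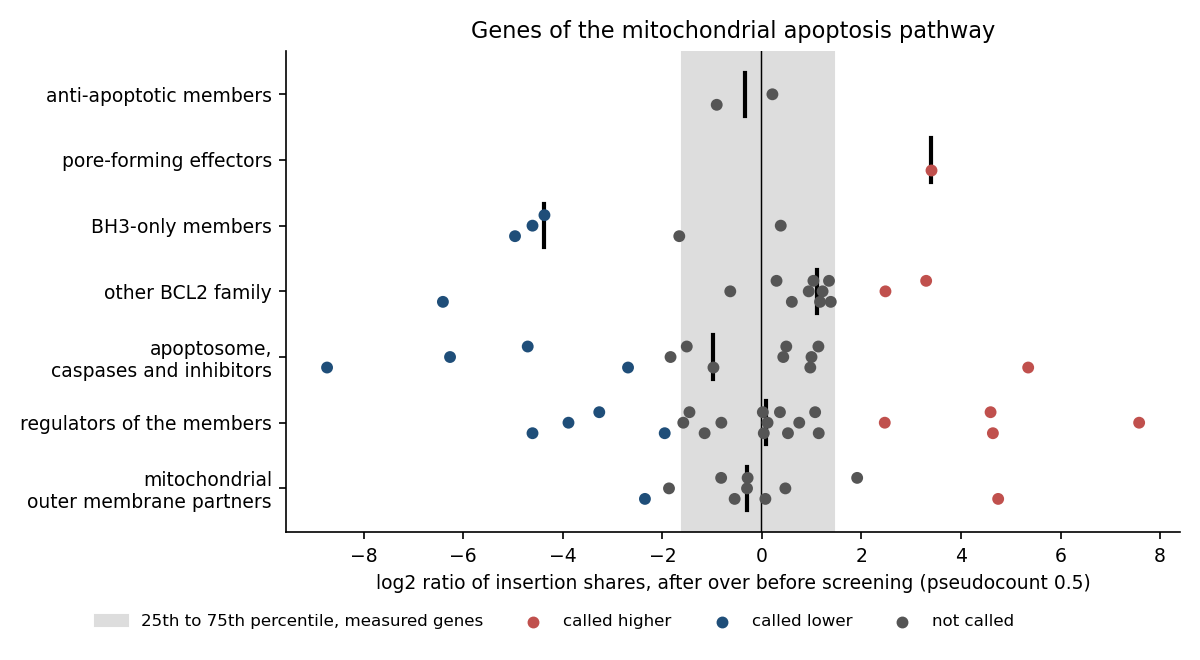
Log2 ratio of insertion shares, after over before screening, with a pseudocount of 0.5 (horizontal axis), for measured genes of the 3 role groups of the BCL2 family and of the 4 other lists (rows). Points are genes, heavy bars are medians, and shading spans the 25th to 75th percentile of the 11976 measured genes. Bax stands alone among the effectors, and 3 of the 5 BH3-only genes lie below -4. Among these, Bbc3 and Pmaip1 had 0 insertions after screening, so the pseudocount sets their position.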

How the data were processed

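Piggybac mutant libraries of rat haESCs taken after and before screening were compared, with 1 library each. The study's methods give splinkerette PCR, trimming with the FASTX toolkit, and HaSAPPy for alignment and for assigning insertions (no version is given in the sources used here). A mouse assembly is named there although the identifiers are those of rat, so the build is uncertain and no insertion position is printed. The submitters' processing notes name HISAT2 2.0.5 and featureCounts 1.5.0-p3 and the labels an mRNA preparation, neither of which makes insertion counts. A numeral ending the column names is unexplained.

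Per gene and library the authors deposited unscaled counts of insertions, disrupting insertions, forward and reverse insertions and reads. The other 33 columns, which hold sums, orientation biases and the authors' own ranks, folds and p-value, were not used. The row of insertions assigned to no gene (57.9% after and 57.3% before screening) stayed out of totals except in 1 alternative. The disrupting count was that of all but reverse insertions, except in 194 hit genes after and 207 before screening, Bcl2l1 among them.

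Shares, folds, log2 ratios (pseudocount 0.5) and exact Clopper-Pearson intervals were computed in Python 3.11.15 with scipy 1.17.1. The calling rule was also run on simulated data. Simulated counts need not share the closeness of forward and reverse counts found in these libraries. That run therefore cannot show how reliable the calls or intervals are here, and no conclusion is drawn from it. A count of 0 was set to a floor of 3 insertions for bounds, with the other count taken as exact. Named are the 10 members, the measured genes of the other family list, genes taken by role from 3 further lists (some of which are not reported here) and the 2 called genes per direction with most insertions in each of these lists. The members and lists were chosen with earlier results of these data known. Symbols of all 10 members and of 66 other genes matched the RefSeq table of assembly GRCr8. Casp6, Huwe1, Fbxw7 and Mff were not analysed here. Alternatives used reads, disrupting or halved insertions, other totals, scalings, pseudocounts, fold minimums and count minimums.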

Additional observations from a re-analysis of the deposited data

Results flagged for a closer look

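Insertions assigned to no gene made up 57.9% of the library after screening, above the 57.3% of the library before screening. They entered comparisons of the BCL2 family only through the totals of 1 alternative. With 1 library each, the difference between 57.9% and 57.3% has no replicate behind it.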

How the results depend on the processing

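No paired analysis was possible because there was 1 library after and 1 before screening. Bax was the 1 member called higher under all 10 alternatives. Bad was called lower under all 10. Bbc3 and Pmaip1 were not called with at least 50 insertions required, where 1 member was lower because fewer genes were tested. Bbc3 was not called with 0 at its floor, where 2 members were lower. With a 2-fold minimum Bid was also called, for 4 members lower. Of the other pathway genes, 18 were higher and 16 lower with the 2-fold minimum, where 30.4% and 31.3% of all measured genes were called, against 8 and 10 with the 4-fold minimum, and 6 were lower with at least 50 insertions, where fewer genes were tested. All 72 log2 ratios of 9 members under 8 alternatives stayed within the counting interval, and 510 of 512 of the other genes did. Both exceptions, Bok among them, were in disrupting insertions, and the cause was not tested. For genes with 0 insertions in 1 library, Bbc3 and Pmaip1 among them, the counting interval is open on 1 side. Their ratios could hardly leave it, and that of Mcl1 is wide (0.159 to 8.87). Most alternatives also reuse the same counts, so this agreement is no evidence for the calls. The share of forward insertions, set beside the disrupting share, lay outside that share's interval in 5 of 13 cases. Depth limits Mcl1, Bak1, Bbc3 and Pmaip1, whose counts after screening are at or under the floor of 3 insertions.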

Other observations

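Forward and reverse insertions of a gene were closer to each other than separate random counts would be. The squared difference of the 2 counts over their sum, whose mean is 1 for independent counts of equal chance, averaged 0.377 over 8314 genes after and 0.359 over 8903 genes before screening, among genes with at least 10 insertions of counted orientation. Over the BCL2 family it averaged 0.151 in 4 genes after and 0.148 in 6 genes before screening. For example, Bcl2l11 had 125 forward and 127 reverse insertions after and 106 and 105 before screening, and Bad had 30 of each before screening. The counting intervals treat insertions of a gene as independent, which these orientation counts do not show. With halved insertions Bax and Bad were still called. Bbc3 and Pmaip1 were called too, but the minimum of 10 was taken from the full counts. Halved, both would fall under that minimum.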
